A study of Mus musculus with 12 samples.

Results

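Livers of tumour-bearing mice kept at 22 °C, the usual temperature of an animal room, were compared with livers of mice kept at the temperatures on either side of it, 6 °C and 29 °C. The contrast set the mean of the 4 libraries labelled 22 °C against the average of the 6 °C and 29 °C means. It can pick out genes that depart from an ordered change with temperature, such as a gene that is lowest or highest at 22 °C. Of 55421 genes in the count table, 15006 passed the low-count filter and all of these were tested, and 4 of the 12 libraries in the series were the 22 °C libraries.

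All mice were wild type (WT) and carried tumours of E0771, a mouse mammary carcinoma line placed in the mammary fat pad. They were acclimatised for 1 week at 6, 22 or 29 °C under a 12 h light and 12 h dark cycle, and the livers are labelled day 21. Total RNA was depleted of ribosomal RNA and sequenced, with libraries 1 to 4 at 6 °C, 5 to 8 at 22 °C and 9 to 12 at 29 °C. No tumour-free liver was part of the comparison, the labels mention both Balb/C and C57Bl6/J mice without tying either to a library, and they give no hour of collection. Whether every library stands for its own mouse is not stated, so the p-values reflect only how far these libraries vary, which may be technical.

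A mouse at 22 °C is below thermoneutrality and spends energy on keeping warm, while at 6 °C this demand is much greater and near 29 °C it is small. The liver supplies fuel for heat production through glucose output, lipoproteins, ketone bodies and acylcarnitines, and it makes fatty acids and cholesterol under the control of feeding. The hepatic clock, in which CLOCK or NPAS2 pairs with BMAL1 (Arntl) and drives its own repressors, sets many of these genes in a daily rhythm, so that liver transcripts depend on the hour as well as on the treatment.

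Total counts per library ran from 7615585 to 19001126. Libraries 1 (6 °C), 7 and 8 (22 °C) and 9 (29 °C) held the pseudogene H2-Ea-ps at a CPM, the count scaled by the library total, of 11.8 to 17.1, and the other 8 had 0 counts of it. All levels below are CPM on library sizes scaled by TMM, which corrects for differences in composition. The fit therefore carried a term for these 4 libraries, which were set apart from the data and are not groups of the study. The noncoding RNA Gm26917 was low in library 6 (0.605% of counts), library 5 (0.667%) and library 3 (1.66%), and made up 4.03% to 8.70% elsewhere. Libraries 5 and 6 were also the closest of 18 replicate pairs (chi-square per degree of freedom of 13.8, against up to 150). Of 12 hepatocyte markers 11 were measured, and their summed level was 118260 to 227520 CPM at 22 °C, 130110 to 173610 at 6 °C and 112710 to 215830 at 29 °C.

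At 22 °C, 16 genes differed from the average of the extremes at an adjusted p under 0.05 (edgeR's quasi-likelihood test, two-sided, Benjamini-Hochberg over all genes), which is 0.107% of the genes tested. Of these, 13 were higher (0.0866%) and 3 were lower (0.02%). The lower genes were Hes6, Aacs and Eno1, with log2 fold changes of -1.38, -1.13 and -0.91, and those of the higher genes ran from 0.59 to 1.45. Hes6 and Aacs were named when the comparison was set up, so their calls are a description. The higher genes included Clock, a core circadian transcription factor, Avpr1a, the V1a vasopressin receptor, and Slc17a4, an organic anion transporter. In each of the 16, 22 °C lay on the same side of both 6 °C and 29 °C, with an unadjusted p under 0.05 against each. The 16 were picked by the average of these same differences, so this is largely built in and adds no support. At an adjusted p under 0.1 there were 38 genes (0.253%), higher in 0.167% and lower in 0.0866% of all genes tested. Fold changes of 1 sign against both extremes were found in 60.8% of all genes tested.

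The stricter question, whether 22 °C lay beyond both extremes, took the larger of the p-values against 6 °C and against 29 °C. No gene passed it after adjustment over all genes in edgeR, the smallest adjusted p being 0.174, while 617 genes (4.11%) had an unadjusted p under 0.05 against each, higher at 22 °C in 1.87% of all genes and lower in 2.25%. DESeq2 gave 15 such genes and limma voom gave 1. For comparison, 29 °C against 6 °C gave 1884 genes (12.6%) in the same edgeR fit. Of the 16 genes, 2 also differed between the extremes, Hes6 (-1.09 on the log2 scale, 29 °C minus 6 °C, adjusted p = 0.00291) and Arrdc4 (0.54, adjusted p = 0.0351).

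The number of calls depended on single libraries, above all on libraries 5 and 6. Without library 5 alone, or without library 6 alone, 0 genes passed in edgeR, with 1085 and 1103 genes at an unadjusted p under 0.05 (DESeq2 and limma voom were not run on these subsets). Without both, 0 genes passed and 473 had an unadjusted p under 0.05, and with libraries 5 and 6 as the 22 °C group 1738 genes passed, all 16 among them. Without the H2-Ea-ps term 1 gene, Hes6, passed. Leaving out library 1 or library 10 left 6 calls. The direction of all 16 genes was the same in each of these fits. Without library 5 and without library 6 the log2 fold changes of Avpr1a were 0.64 and 0.75 (0.67 with all libraries) and those of Clock were 0.69 and 0.75 (0.70 with all libraries). Without both libraries Eno1 went from -0.91 to -0.47 and Arrdc4 from 0.83 to 0.51.

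**Figure D1:**
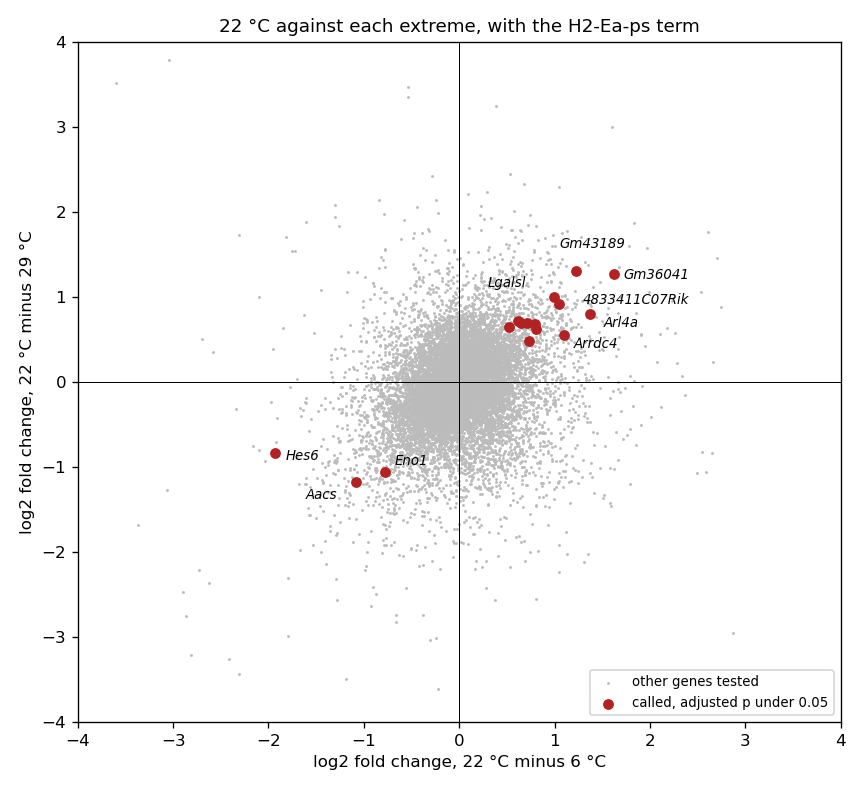
Each point is 1 of the genes tested, with the log2 fold change of 22 °C minus 6 °C on the horizontal axis and of 22 °C minus 29 °C on the vertical axis, from the fit with the H2-Ea-ps term. Red points are the 16 genes called, and all lie to the lower left or upper right, where 22 °C is beyond both extremes. The axes share the 22 °C libraries, which stretches the cloud along the diagonal, and 8 genes lie outside the axes.

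Hes6, a Hes family protein that counteracts the repressor HES1, had its lowest level at 22 °C. It was one of the genes named when the comparison was set up, so its pattern is a description. The gene lies at chr1:91411483-91414038 on the minus strand (GRCm38). The 250 bases before its start, from RefSeq (GRCm38.p6, chr1:91414039-91414288, minus strand), are shown because this was the lowest fold change of the 16. Promoter windows of up to 300 bases were searched on both strands for the E-box CACGTG, the D-box TTATGTAA, its variant TTATGCAA and the sterol regulatory element TCACNCCAC, and that of Hes6 held none of them.
Hes6: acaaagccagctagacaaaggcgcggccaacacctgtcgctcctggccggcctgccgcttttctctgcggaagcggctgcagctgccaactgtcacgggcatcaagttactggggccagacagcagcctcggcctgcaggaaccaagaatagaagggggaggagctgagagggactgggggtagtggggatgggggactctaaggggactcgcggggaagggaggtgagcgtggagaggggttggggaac

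Hes6 was at 8.21, 8.15, 7.66 and 11.2 CPM in the 4 libraries at 22 °C. The levels were 29.9, 40.1, 23.1 and 42.4 CPM at 6 °C and 15.0, 14.8, 18.4 and 15.2 CPM at 29 °C. All 22 °C libraries lay below the other 8, and the 29 °C libraries lay below all 6 °C libraries. The log2 fold change was -1.38 (SE 0.19, adjusted p = 0.0156), with -1.93 against 6 °C and -0.84 against 29 °C. Within the libraries without H2-Ea-ps the differences in mean log2 level were -1.93 and -0.89, and within those with it -1.59 and -0.64. The values with it rest on library 1 alone at 6 °C and on library 9 alone at 29 °C. Of 25 alternatives Hes6 passed 22, and it did not pass without library 5, library 6 or both, where the log2 fold changes were -1.33, -1.33 and -1.17.

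Hes6 is a member of the list of Notch pathway genes and Hes/Hey factors, through which cells signal to their neighbours. Of 31 genes listed 28 were measured, 1 was called (Hes6, lower), and 1 was higher and 2 were lower at an unadjusted p under 0.05 (10.7%, against 16.4% of all genes tested, 8.03% higher and 8.4% lower). The list's median log2 fold change was -0.17, and that of all genes was 0.00 to 2 decimals. Lfng, which modifies Notch receptors, was at -0.39 and Numb, an inhibitor of Notch, at 0.27, both named after their values were seen. Per2, the clock repressor 1944 bp upstream of Hes6 on the same strand, was at -0.59 (adjusted p = 0.562), and it was named after its values were seen.

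Aacs encodes acetoacetyl-CoA synthetase, which turns the ketone body acetoacetate into a precursor for lipid and cholesterol synthesis in the cytosol. It too was named when the comparison was set up, so its pattern is likewise a description. It lies at chr5:125475814-125517410 on the plus strand, and the 191 bases of RefSeq sequence before its start (chr5:125475623-125475813, plus strand) are shown because it was the other gene named at the outset. Its window held none of the motifs, the sterol regulatory element among them.
Aacs: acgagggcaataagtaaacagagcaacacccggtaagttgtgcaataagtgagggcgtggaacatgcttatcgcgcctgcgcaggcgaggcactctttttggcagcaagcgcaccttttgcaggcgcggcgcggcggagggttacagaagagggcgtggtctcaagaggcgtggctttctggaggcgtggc

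Aacs was at 29.7, 45.6, 41.4 and 41.9 CPM at 22 °C. The other libraries were at 90.1, 96.6, 88.8 and 65.3 CPM at 6 °C and at 67.5, 101, 113 and 81.0 CPM at 29 °C. The groups at 6 °C and 29 °C overlapped and all 22 °C libraries lay below both. The log2 fold change was -1.13 (SE 0.17, adjusted p = 0.0169), nearly equal against 6 °C (-1.09) and 29 °C (-1.17). Between the extremes, 29 °C minus 6 °C, Aacs was at 0.09 (adjusted p = 0.799). Of 25 alternatives Aacs passed 18.

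Eno1, the glycolytic enzyme alpha-enolase, was at 41.2, 47.9, 20.2 and 19.04 CPM at 22 °C. It was at 21.6, 96.9, 86.6 and 107 CPM at 6 °C and at 33.7, 109, 95.6 and 124 CPM at 29 °C. The low values at the extremes were in libraries 1 and 9, which hold H2-Ea-ps, as do libraries 7 and 8. The groups therefore overlapped, and the log2 fold change was -0.91 (SE 0.16, adjusted p = 0.0367). In libraries without H2-Ea-ps the difference in mean log2 level of Eno1 was -1.10 against 6 °C and -1.28 against 29 °C. In those with it the difference was -0.13 against library 1 alone at 6 °C and -0.75 against library 9 alone at 29 °C. Eno1b, a near-identical copy of Eno1 without introns and named after its values were seen, had 3.81 to 6.56 CPM in libraries 1, 7, 8 and 9 and 0 counts in the other 8, so reads of the pair may have been split and the Eno1 value is uncertain.

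Among 69 genes (0.46%) all 4 libraries at 22 °C lay above the other 8, and among 51 genes (0.34%) all 4 lay below, together 0.8% of the genes tested. Of the 16 genes called, 8 had such groups without overlap, 6 of them higher (Slc17a4, Tab2, Avpr1a, Rai14, 4932438A13Rik and 4833411C07Rik) and 2 lower (Hes6 and Aacs). Since the 16 were picked by a contrast of these same libraries, a larger share among them is largely built in and adds no support.

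**Figure D2:**
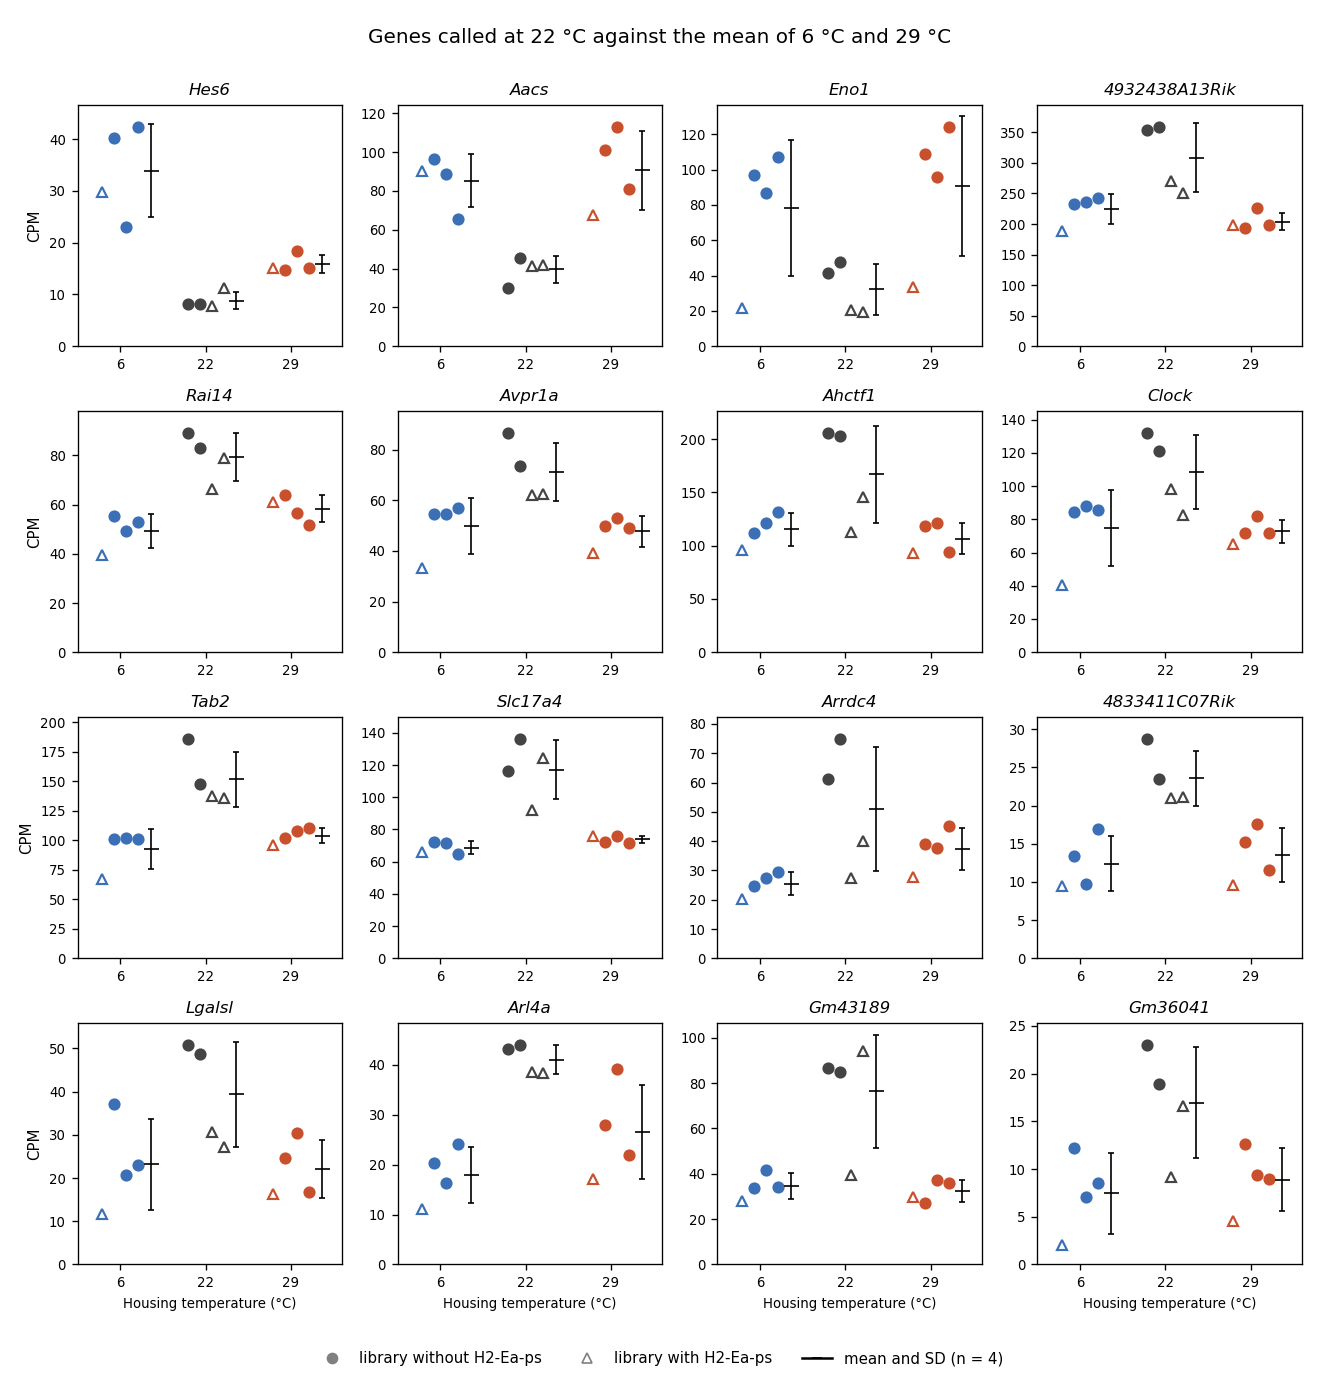
Level in CPM on TMM-scaled library sizes against housing temperature in °C for the 16 genes called, 1 panel per gene, with 1 point per library and the mean and SD of 4 libraries beside each group. Open triangles are the libraries with H2-Ea-ps. Hes6 and Aacs are below all other libraries at 22 °C, and in Eno1 the triangles sit lowest in each group.

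Slc17a4 transports organic anions such as urate and thyroid hormones. It was at 116, 136, 92.3 and 124 CPM at 22 °C, against 64.7 to 72.4 CPM at 6 °C and 71.8 to 76.0 CPM at 29 °C. The 22 °C libraries were spread more widely than the other groups and all were above them. Its log2 fold change was 0.74 (SE 0.10, adjusted p = 0.0156). Slc17a1, a related phosphate transporter 160 bp away on the opposite strand, was at 0.45 (adjusted p = 0.195) and was named after its values were seen.

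Tab2 encodes an adaptor that links ubiquitin chains to the kinase TAK1 in inflammatory signalling. Its levels at 22 °C were 186, 148, 138 and 136 CPM, with 67.3, 101, 102 and 101 CPM at 6 °C and 96.0, 102, 108 and 110 CPM at 29 °C. Library 1 was the lowest of all. For Tab2 the log2 fold change was 0.71 (SE 0.10, adjusted p = 0.0156).

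Avpr1a, the receptor through which vasopressin acts on hepatocytes, was at 86.6, 73.5, 62.2 and 62.3 CPM at 22 °C. It was at 33.2, 54.5, 54.7 and 57.0 CPM at 6 °C and at 39.1, 49.6, 53.1 and 48.9 CPM at 29 °C. The groups did not overlap, although libraries 7 and 8 lay close to the highest of the other 8. The log2 fold change was 0.67 (SE 0.10, adjusted p = 0.0156), with 0.65 against 6 °C and 0.69 against 29 °C.

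The long noncoding RNA Gm36041 lies 13466 bp from Avpr1a on the same strand of chromosome 10, and it and the other Gm and Rik genes in the text were named after their values were seen. Gm36041 was at 23.0, 18.9, 9.13 and 16.6 CPM at 22 °C, 2.02, 12.2, 7.07 and 8.53 CPM at 6 °C and 4.55, 12.6, 9.36 and 8.95 CPM at 29 °C. Library 7 fell within the range of the other temperatures. Its log2 fold change was the highest of the 16, 1.45 (SE 0.24, adjusted p = 0.0367). Gm48878, 680 bp from Avpr1a on the same strand, was at 1.12 (adjusted p = 0.146). Gm36041 lies upstream of Avpr1a and Gm48878 downstream, and whether Gm48878 is separate from reads running past the end of Avpr1a was not tested.

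Of the 16 genes, 3 were long noncoding RNAs (874 of the genes tested were, 5.82%). Gm43189, annotated as a sense intronic transcript, was at 86.7, 85.0, 39.5 and 94.3 CPM at 22 °C, against 27.8 to 41.7 CPM at 6 °C and 27.0 to 37.0 CPM at 29 °C. Library 7 lay within the range of the 6 °C libraries and the other 3 at 22 °C lay above all others. Gm43189 had a log2 fold change of 1.27 (SE 0.18, adjusted p = 0.0156). Reads from a sense intronic transcript and from unspliced RNA of the gene around it cannot be told apart. 4833411C07Rik, on chromosome 8, was at 0.99 (SE 0.16, adjusted p = 0.0298), and the antisense transcript Gm2814 that overlaps it was at 1.21 (adjusted p = 0.146), with both uncertain since the use of strand is not given.

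Among the other genes called higher, Arl4a, a small GTPase of the ARF family, was at 43.1, 43.9, 38.5 and 38.4 CPM at 22 °C. It was at 11.2 to 24.2 CPM at 6 °C and 17.1 to 39.0 CPM at 29 °C, where library 11 alone reached the 22 °C range. The log2 fold change was 1.09 (SE 0.17, adjusted p = 0.0224). Rai14, an actin-binding protein, was at 66.3 to 89.2 CPM at 22 °C, against 39.5 to 55.2 CPM at 6 °C and 51.6 to 64.0 CPM at 29 °C (log2 fold change 0.61, adjusted p = 0.0442). Ahctf1 (ELYS), which seeds nuclear pores on chromatin, was at 0.67 (adjusted p = 0.0367), and Lgalsl, a galectin-related protein, at 1.00 (adjusted p = 0.0473), both with overlapping groups. The large gene 4932438A13Rik was at 0.59 (adjusted p = 0.0425).

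Arrdc4, an arrestin-domain protein that restrains glucose uptake and is induced by the glucose sensor ChREBP, was at 61.4, 74.9, 27.4 and 40.2 CPM at 22 °C. It was at 20.4, 24.7, 27.5 and 29.5 CPM at 6 °C and at 27.8, 39.1, 37.8 and 45.0 CPM at 29 °C. Libraries 5 and 6 were above all others and libraries 7 and 8 were not. Arrdc4 had a log2 fold change of 0.83 (SE 0.13, adjusted p = 0.0260). Its RefSeq promoter (GRCm38.p6, chr7:68749242-68749488, minus strand) is shown because it held the E-box CACGTG, in capitals. It alone did so of 14 called genes with a promoter in the table. This motif was in 7.15% of all 32851 promoter windows and in 8.09% of all 27025 symbols. The 1 of 14 is near the share over all symbols. Of the same 14, 4833411C07Rik held the D-box TTATGTAA (1.11% of all symbols), and none held TTATGCAA or TCACNCCAC.
Arrdc4: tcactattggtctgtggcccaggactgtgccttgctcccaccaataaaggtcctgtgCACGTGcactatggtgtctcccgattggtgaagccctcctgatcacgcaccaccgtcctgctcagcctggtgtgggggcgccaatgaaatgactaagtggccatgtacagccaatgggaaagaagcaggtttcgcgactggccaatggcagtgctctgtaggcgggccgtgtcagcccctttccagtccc

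Of 24 genes listed for the core clock and its outputs 23 were measured and 1, Clock, was called, higher at 22 °C. At an unadjusted p under 0.05, 5 were higher and 10 were lower, 65.2% of the list against 16.4% of all genes tested. The list's median was -0.39. Some of these genes, named after their values were seen, did not differ from both extremes. Against 29 °C the unadjusted p in edgeR was 0.794 for Noct, 0.247 for Cry2, 0.130 for Ciart, 0.0770 for Per3 and 0.0550 for Arntl. Against 6 °C it was 0.130 for Wee1 and 0.119 for Rora. The rest had an unadjusted p under 0.05 against each. Clock was at 132, 121, 98.4 and 82.7 CPM at 22 °C, 40.6, 84.7, 87.8 and 85.8 CPM at 6 °C and 65.4, 71.9, 81.8 and 71.7 CPM at 29 °C. Library 8 fell among the 6 °C libraries. Clock had a log2 fold change of 0.70 (SE 0.13, adjusted p = 0.0473). Of 25 alternatives Clock passed 11. Gm43658, an unclassified transcript within Clock on its strand, was at 0.90 (adjusted p = 0.156).

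The other clock genes, named here after their values were seen, did not pass over all genes. Arntl, the partner of CLOCK, was at 61.5, 70.4, 33.0 and 39.4 CPM at 22 °C. It was at 1.51, 42.8, 10.7 and 43.6 CPM at 6 °C and at 15.7, 32.0, 28.4 and 26.1 CPM at 29 °C. Libraries 1 and 3 at 6 °C were far below the other 6 °C libraries, and the log2 fold change was 1.52 (adjusted p = 0.231). Npas2, which can stand in for CLOCK, was at 2.19 (adjusted p = 0.140), and Nfil3, a repressor at D-box sites, at 0.99 (adjusted p = 0.162).

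Dbp, a PAR bZIP activator at D-box sites and a direct output of CLOCK and BMAL1, was at 0.738, 0.306, 2.81 and 5.53 CPM at 22 °C. It was at 143, 5.72, 47.1 and 6.69 CPM at 6 °C and at 16.8, 2.22, 4.63 and 7.66 CPM at 29 °C. The high values were those of libraries 1 and 3, in which Arntl was low. The change in Dbp was -3.79 on the log2 scale (SE 0.82, adjusted p = 0.145), with -4.96 against 6 °C and -2.62 against 29 °C. Tef, a related activator, was at -1.48 (adjusted p = 0.0813), Nr1d2 (REV-ERB beta), a repressor of Arntl, at -0.90 (adjusted p = 0.130), and Ciart, a clock repressor, at -2.52 (adjusted p = 0.220).

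Per3, a period protein, was at 5.08, 6.21, 8.17 and 11.9 CPM at 22 °C, against 10.96 to 176 CPM at 6 °C and 7.56 to 22.5 CPM at 29 °C (log2 fold change -2.16, adjusted p = 0.173). Its promoter (RefSeq, GRCm38.p6, chr4:151044666-151044915, minus strand) is shown because it held 2 copies of the D-box TTATGTAA, in capitals, at positions 46 and 93 counted from its 5′ end. This motif was in 0.938% of all windows and 1.11% of all symbols. Per3 was the only one of 19 clock genes with a promoter in the table to hold it. The E-box CACGTG was in 6 of the 19 (Bhlhe41, Ciart, Cry1, Per1, Tef and Tspan4), the D-box variant TTATGCAA in 1 (Per1; 0.743% of all windows), and the sterol element TCACNCCAC in none of the 19 (1.24% of all windows). The match of a window is a description of its letters.
Per3: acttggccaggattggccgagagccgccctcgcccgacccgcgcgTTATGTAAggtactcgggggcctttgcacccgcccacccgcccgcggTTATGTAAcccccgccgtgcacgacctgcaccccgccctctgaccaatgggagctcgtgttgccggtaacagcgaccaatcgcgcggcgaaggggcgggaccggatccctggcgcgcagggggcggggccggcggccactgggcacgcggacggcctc

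In Dbp the 22 °C libraries overlapped those at 29 °C and lay below all at 6 °C. Library 8 (5.53 CPM) was just below library 2 (5.72 CPM), and libraries 5 and 6 were far lower (0.738 and 0.306 CPM). The value of library 6 is near its level for 3 counts (0.293 CPM), so the size of the Dbp fold change is uncertain. With log2 Dbp level as a further term, added after the data were seen, 4 genes passed, of which 1 (Hes6) was among the 16. In that fit the log2 fold changes were 0.50 for Clock, 0.05 for Npas2, -0.19 for Tef and -1.92 for Hes6. Dbp is itself on the clock list and was measured in the same libraries. Clock genes that vary with it therefore shrink in this fit by construction, and a role of clock phase was not tested. The labels give no hour of collection, and clock phase and temperature cannot be told apart here.

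**Figure D3:**
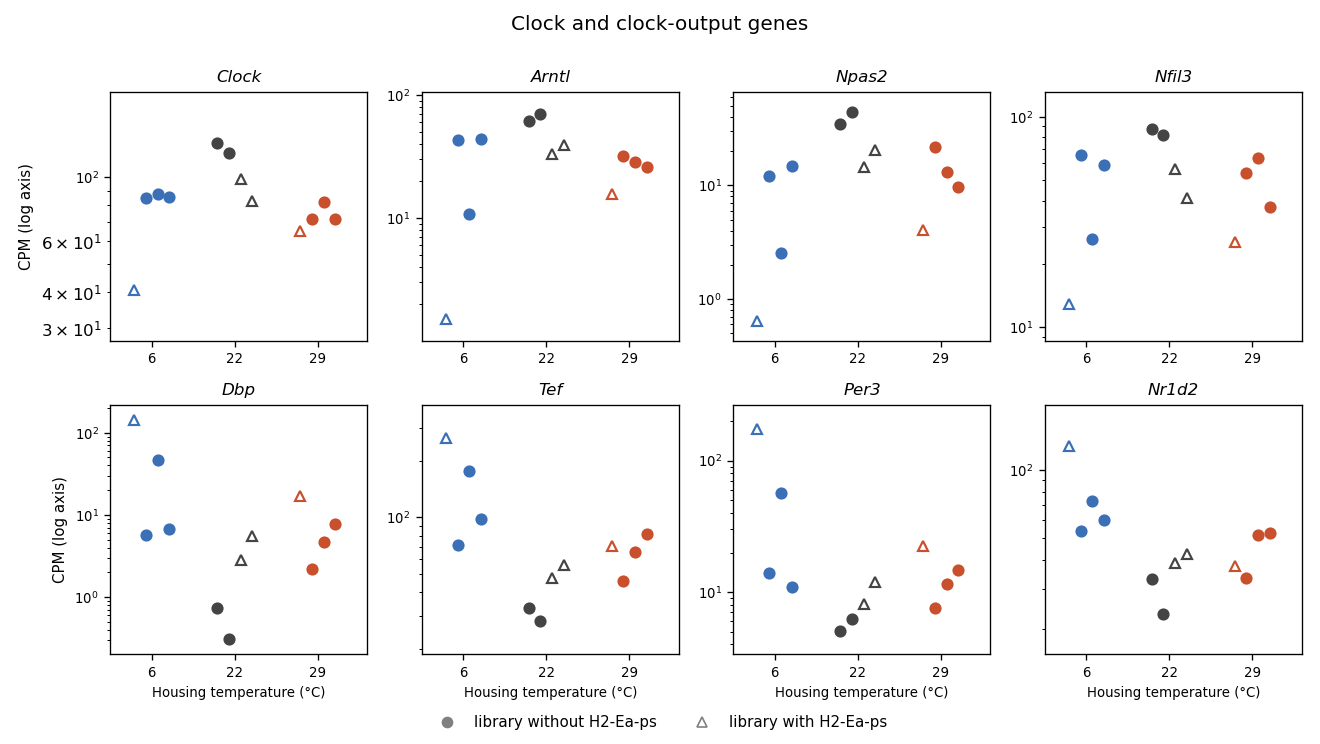
Level in CPM (log axis) against housing temperature in °C for 8 clock and clock-output genes, 1 point per library, open triangles for libraries with H2-Ea-ps. Clock, Arntl, Npas2 and Nfil3 are highest in libraries 5 and 6 at 22 °C. Dbp and Per3 reach 143 and 176 CPM in library 1 and are lowest at 22 °C in libraries 5 and 6.

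Of 27 genes of fatty acid synthesis, all measured, 1 was called (Aacs) and 18 had a negative fold change. At an unadjusted p under 0.05, 8 were lower and 1 was higher (33.3%, against 16.4% of all genes tested), with a median of -0.13. Thrsp, which promotes lipogenesis, was at 94.3, 108, 58.1 and 48.5 CPM at 22 °C, against 120 to 313 CPM at 6 °C and 92.9 to 194 CPM at 29 °C (log2 fold change -1.15, adjusted p = 0.164). Fasn, fatty acid synthase, was at -0.55 (adjusted p = 0.166), Mid1ip1, an activator of acetyl-CoA carboxylase, at -0.63 (adjusted p = 0.145), and Dgat2, which completes triglycerides, at -0.47 (adjusted p = 0.145). Acaca, acetyl-CoA carboxylase itself, was at -0.11 (adjusted p = 0.687). These genes other than Aacs were named after their values were seen.

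In cholesterol synthesis 23 of 26 genes had a negative fold change and none was called, with a median of -0.30. At an unadjusted p under 0.05, 8 were lower and 1 was higher (34.6%, against 16.4% of all genes tested). The list's summed level was 3725 to 5041 CPM at 22 °C, 5375 to 8005 CPM at 6 °C and 3094 to 6104 CPM at 29 °C. As a sum, 22 °C was thus below 6 °C but within the range at 29 °C. Tm7sf2, a sterol reductase, was at 46.6, 39.1, 78.7 and 81.1 CPM at 22 °C, 108 to 134 CPM at 6 °C and 50.2 to 90.1 CPM at 29 °C (log2 fold change -0.67, adjusted p = 0.201). Dhcr7, the last enzyme of 1 branch of the pathway, was at -0.45 (adjusted p = 0.202). In both genes the level at 29 °C lay nearer to 22 °C than that at 6 °C did.

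Among genes of ketone body synthesis and use 1 of 10 was called (Aacs), with no other gene at an unadjusted p under 0.05 and a median of 0.08. Bdh1, which interconverts the ketone bodies, was at 0.12 (adjusted p = 0.639) and Oxct1, which uses them outside the liver, at -0.24 (adjusted p = 0.669), both named after their values were seen. In glycolysis 18 of 20 genes had a negative fold change (median -0.34), and 1 was called, Eno1. Of the negative ones, 5 had an unadjusted p under 0.05 (25% of the list, against 16.4% of all genes tested). The list's summed level was 792 to 1114 CPM at 22 °C, 768 to 1080.5 CPM at 6 °C and 1256 to 2035 CPM at 29 °C. As a sum, 22 °C was thus below 29 °C only and overlapped 6 °C.

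The mitochondrially encoded mRNAs were the list with the highest median, 0.86, and all 7 measured had a positive fold change, with 3 at an unadjusted p under 0.05 (42.9%, against 16.4% of all genes tested) and none called. mt-Co1, a subunit of cytochrome c oxidase, was at 20435, 23324, 6126 and 7484 CPM at 22 °C, 7948 to 17546 CPM at 6 °C and 5106 to 6221 CPM at 29 °C. Its log2 fold change was 0.87 (adjusted p = 0.184), and without libraries 5 and 6 it was -0.07. mt-Cytb, the cytochrome b subunit, was also at 0.87 (adjusted p = 0.257) and at -0.22 without them. The 74 nuclear-encoded respiratory chain genes had a median of -0.12, with 5 higher and 15 lower at an unadjusted p under 0.05 (27%, against 16.4%) and none called.

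Chaperones of the endoplasmic reticulum had 20 of 23 fold changes above 0 and a median of 0.24, with 3 higher and 1 lower at an unadjusted p under 0.05 (17.4%, close to the 16.4% of all genes tested) and none called. Hsp90b1, the chaperone GRP94, was at 0.47 (adjusted p = 0.255), and Sel1l, a part of the degradation machinery for misfolded proteins, at 0.36 (adjusted p = 0.263). Without libraries 5 and 6 Hsp90b1 was at -0.0028. Of 15 histone genes measured 13 had a negative fold change (median -0.27), and none was called. At an unadjusted p under 0.05, 2 were higher and 1 was lower (20%, close to the 16.4% of all genes tested). Hist1h4h was at -1.05 (adjusted p = 0.166) and Hist1h2bc at 0.71 (adjusted p = 0.175). Of 8 genes listed as cold-inducible or temperature-dependent RNA-binding and splicing factors none was called. At an unadjusted p under 0.05, 4 were higher and 1 was lower (62.5%, against 16.4% of all genes tested), and the median was 0.23. The following were named after their values were seen. The splicing kinase Clk1 was at 0.50 (adjusted p = 0.127) and the splicing factor Srsf2 at -0.50 (adjusted p = 0.194), while the cold-shock proteins Cirbp and Rbm3 were at -0.54 (adjusted p = 0.313) and -0.40 (adjusted p = 0.382).

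**Figure D4:**
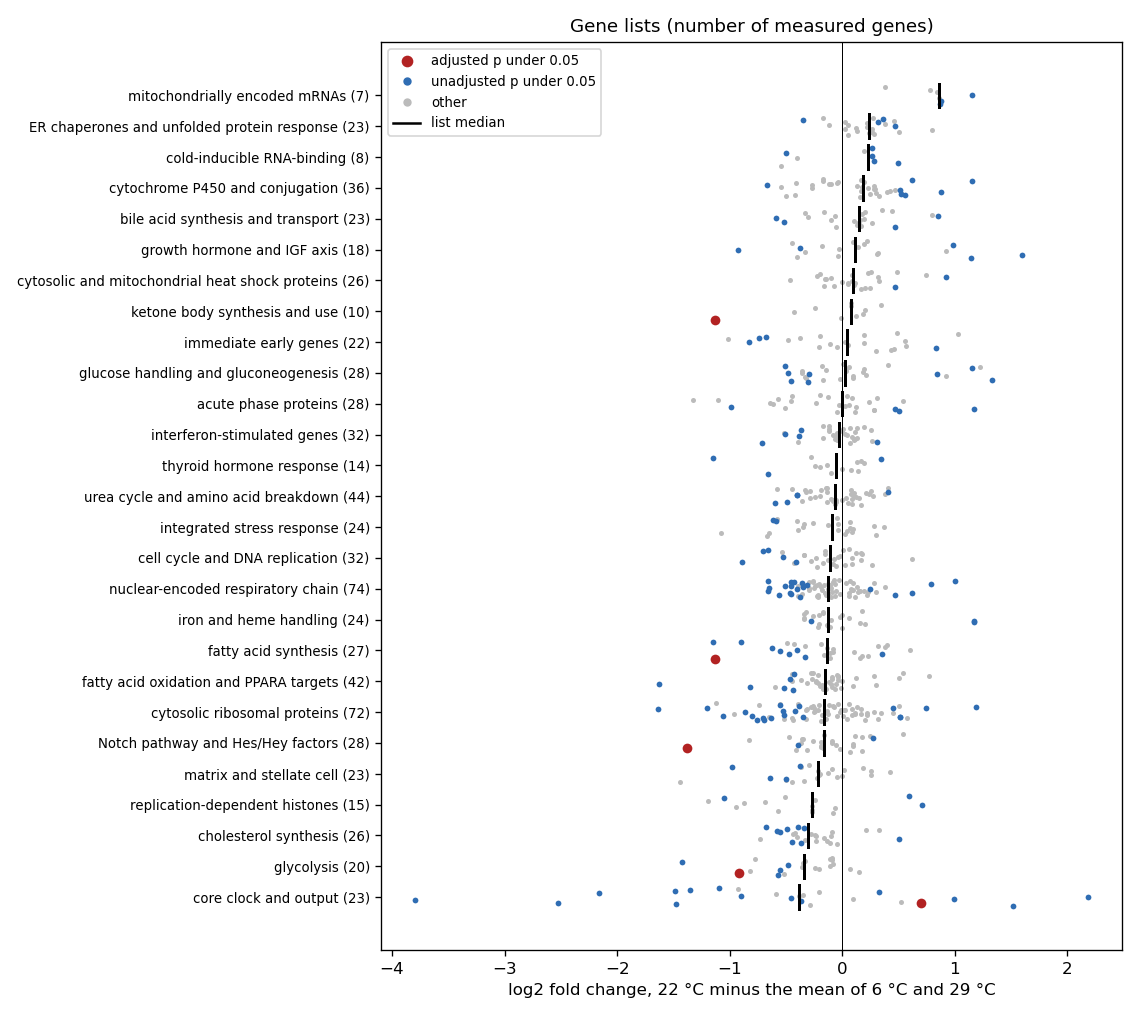
Log2 fold change of 22 °C minus the mean of 6 °C and 29 °C for the measured members of each pathway list, marker lists left out, 1 point per gene, with the number measured in brackets and a black bar at the list median. Medians run from -0.39 for the clock list to 0.86 for the mitochondrially encoded mRNAs, and the red points are Aacs, Hes6, Eno1 and Clock.

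Markers of other cell types gave no called gene. Erythroid markers had the lowest median of the marker lists, -0.61 over 11 of 15 genes, with 5 lower at an unadjusted p under 0.05 (45.5%, against 16.4% of all genes tested). Their summed level was 75.6 to 134 CPM at 22 °C, 120 to 228 CPM at 6 °C and 126 to 494 CPM at 29 °C. Neutrophil markers summed to 431 to 1653 CPM at 22 °C, 38.1 to 877 CPM at 6 °C and 660 to 2695 CPM at 29 °C, and Kupffer cell and macrophage markers to 756 to 1645, 844 to 1384 and 1000.3 to 1961 CPM in the same order. Of 10 skeletal muscle and 13 pancreatic acinar markers, 0 and 1 passed the low-count filter. The part of these cells in the results was not tested. In such bulk samples fewer cells of a type and less RNA per cell cannot be told apart.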

How the data were processed

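Mouse liver RNA in 12 libraries (4 each at 6, 22 and 29 °C) was sequenced, per the labels' protocols, from total RNA with ribosomal RNA removed. The deposited table holds unnormalized counts for 55421 genes, under symbols and Ensembl identifiers. STAR 2.6.1a, bcl2fastq, DESeq2 1.44.0 and GRCm38 are listed in the submitters' processing notes, without roles. How reads were counted, and whether by strand, is not given in the sources used here.

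Counts were tested in R 4.3.3 by robust quasi-likelihood fits of edgeR 4.0.16, after filterByExpr by group and TMM scaling (two-sided, Benjamini-Hochberg adjusted p under 0.05, no minimum fold). The model had 3 group means and a term marking the 4 libraries in which H2-Ea-ps reached 1 CPM, leaving 8 residual degrees of freedom, with a biological coefficient of variation of 0.223. Levels are CPM on TMM-scaled library sizes. Total counts were 7615585 to 19001126. The contrast was 22 °C minus the average of 6 °C and 29 °C. A gene beyond both extremes needed fold changes of 1 sign, and the larger of its p-values was adjusted over all genes. Gene positions came from GENCODE vM21 (GRCm38), which matched 14689 of the 15006 identifiers tested, and promoters from RefSeq (GRCm38.p6). The count table held 113 repeated symbols, and in lists a repeated symbol was read as the copy with the highest mean.

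The comparison, its H2-Ea-ps term, the gene lists and the genes were chosen with earlier results of these data known. Genes were named by a rule: Hes6 and Aacs, then up to 12 called genes each way with mean log2 CPM of at least 1, a regular symbol and 22 °C beyond both extremes with and without H2-Ea-ps, then called list members, then 2 members with the lowest p from each of the 4 lists with no called member and medians farthest from that of all genes. Names outside it are marked in the text. Some items are not reported here.

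On simulated counts (14698 genes, 100 changed per fold size) 70% of 2-fold and 85% of 4-fold changes were called, with 5 false calls. These rates describe the simulated counts only. Whether they hold for the libraries of the study was not tested, so they are not the power of the comparison. Sampling noise did not account for the differences within any of the 18 replicate pairs, whose chi-square per degree of freedom was 13.8 to 150. Alternatives were fits without the H2-Ea-ps term, without the libraries holding it, and with the Gm26917 share as a term. Others left out libraries 5 and 6 or 7 and 8, or used DESeq2 size factors or upper-quartile factors. Another left mitochondrial genes and the 10 most abundant ones out of both scaling and testing. Further ones were no low-count filter, at least 1 CPM in 8 libraries, DESeq2 1.42.0 and limma 3.58.1 voom with quality weights. The last were a minimum absolute log2 fold change of 1 and leaving out each library. A term for Dbp level, log2(CPM + 1), was added after seeing the data.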

Additional observations from a re-analysis of the deposited data

Results flagged for a closer look

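Of 147 sets of 4 libraries examined (49 genes at 3 temperatures), 11 held a library far from the other 3 of its temperature, where chance gives about 1 in 20. Library 1, at 6 °C, gave 5 of these. In it Avpr1a was at 33.2 CPM (54.5 to 57.0 in the others), Clock at 40.6 CPM (84.7 to 87.8), Tab2 at 67.3 CPM (101 to 102), Tkfc, a kinase of fructose metabolism named after its values were seen, at 228 CPM (328 to 336), and Eno1b at 4.32 CPM (0 in the others).

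At 22 °C, Hes6 was at 11.2 CPM in library 8 (7.66 to 8.21 in the others), Dhcr7 at 94.9 CPM in library 7 (113 to 117) and Gm43189 at 39.5 CPM in library 7 (85.0 to 94.3). At 29 °C, Hes6 was at 18.4 CPM in library 11 (14.8 to 15.2), Eno1b at 6.56 CPM in library 9 (0 in the others) and mt-Cytb at 3902 CPM in library 9 (1521 to 1816).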

How the results depend on the processing

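The 16 calls of 22 °C against the average of the extremes became 1 without the H2-Ea-ps term, 34 with the Gm26917 share as a term (7 of the 16 among them), 0 without libraries 5 and 6, 5 with a minimum absolute log2 fold change of 1, and 4 with Dbp level as a term. They became 1875 in the 8 libraries without H2-Ea-ps, 1738 without libraries 7 and 8, 872 without a low-count filter, 337 with DESeq2 and 351 with limma voom, and all 16 were among the calls in each of these 5. They stayed at 16 with DESeq2 size factors, upper-quartile factors, without mitochondrial and abundant genes, and at 1 CPM in 8 libraries. Leaving out 1 library gave 0 to 197 calls: 0 without library 5 or 6, 6 without library 1 or 10, 8 without library 3 or 11, 9 without library 12, and 197 without library 9. Genes beyond both extremes numbered 189 in the 8 libraries without H2-Ea-ps, 273 without libraries 7 and 8, 103 without a low-count filter, 15 with DESeq2, 1 with limma voom, 1 with the Gm26917 share, and 0 to 1 when 1 library was left out. The cause of these changes was not tested.

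All 16 kept their direction in 25 alternatives. Of these 25, Clock and Lgalsl passed 11, Ahctf1 and 4932438A13Rik 12, Rai14 13, Eno1 14, Aacs 18, and Hes6 the most, 22. Directions reversed, all short of the threshold, with Dbp level as a term for Arntl (-0.43), Ciart (0.82), Cry1 (-0.51), Nfil3 (-0.26), Per2 (0.98) and Per3 (0.48). Per2 was at 0.058 in the 8 libraries and 0.041 without libraries 7 and 8, and Eno1b at 0.64 without the H2-Ea-ps term and 0.090 without libraries 7 and 8. With the Gm26917 share Hsp90b1 was at -0.014 and mt-Cytb at -0.13. Without libraries 5 and 6 Hsp90b1 was at -0.0028, mt-Co1 at -0.072, mt-Cytb at -0.22 and Tm7sf2 at 0.11. No paired analysis was possible because the libraries carry the numbers 1 to 12, each used once. With 3 counts in a library equal to 0.158 to 0.394 CPM, levels under that were not detectable, for counting error alone.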

Other observations

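Below the threshold, 22 further genes had an adjusted p between 0.05 and 0.1, which brings the number under 0.1 to 38 (0.253% of the genes tested, 25 higher and 13 lower at 22 °C). Those given here were chosen after their values were seen. Cyp8b1, the sterol 12-alpha-hydroxylase that sets the balance of bile acids, was at 102, 96.9, 90.2 and 115 CPM at 22 °C, against 145 to 202 CPM at 6 °C and 120 to 148 CPM at 29 °C. The groups did not overlap, and the log2 fold change was -0.59 (SE 0.12, adjusted p = 0.0979). Gpr146, a hepatic receptor that raises plasma cholesterol, was at 38.8, 29.2, 48.5 and 57.0 CPM at 22 °C, with all other libraries higher (-1.11, SE 0.22, adjusted p = 0.0813). Cebpa, a transcription factor of hepatocyte identity, was at -1.06 (SE 0.22, adjusted p = 0.0993), with 108, 99.2, 168 and 218 CPM at 22 °C and 206 to 364 CPM elsewhere, so that only library 8 overlapped the other temperatures.

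A1cf, the cofactor of Apob mRNA editing, was at 0.65 (SE 0.12, adjusted p = 0.0670), with 336 and 320 CPM in libraries 5 and 6 and 162 and 181 CPM in libraries 7 and 8, and the groups overlapped. Tspan4, a tetraspanin on the clock list, was at 12.8, 15.4, 32.4 and 21.8 CPM at 22 °C and below all other libraries (-1.36, SE 0.25, adjusted p = 0.0813).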
